A study of Mus musculus with 4 samples.

Results

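The RNA polymerase II elongation machinery was examined in mouse E14 embryonic stem cells after depletion of Npac by RNA interference. The genes were chosen by name, from a list of factors that pause, release, carry along or terminate RNA polymerase II, and were matched to probe sets annotated with a single gene symbol. The list held 57 symbols for 56 genes, since Ski8 is a newer name of Wdr61, and 53 of the genes were measured out of 18193 genes on the array. Supt4a, Ssrp1 and Ell3 had no probe set annotated to them alone and are not counted below.

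The data were 4 expression arrays, 2 from Npac RNAi cells and 2 from control RNAi cells. E14 is a mouse embryonic stem cell line, grown here with serum and the cytokine LIF. In both groups a hairpin construct was transfected with a lipid reagent, puromycin selection began 24 hours after transfection and lasted 3 days, and total RNA was then extracted from the mixed population. The treatment text is the same for all arrays and names the Npac hairpin alone, so what the control cells received is known only as control RNAi. Nothing in the labels says whether the 2 arrays of a group came from separate cultures, so p-values measure the spread between these arrays, which may be technical. Values are log2 signals of 1 probe set per gene, the one with the highest mean over the 4 arrays. Because the authors' processing equalises arrays, every difference is relative to the bulk of the transcripts.

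Soon after it starts, RNA polymerase II often pauses near the promoter, held by the factors NELF and DSIF. The kinase P-TEFb, kept inactive in a particle with the 7SK RNA, phosphorylates NELF, DSIF and the polymerase tail and releases the enzyme into the gene body, where the PAF complex, SPT6 and FACT accompany it through nucleosomes. The super elongation complex brings P-TEFb to genes, and release of paused polymerase is a known control point for developmental genes in embryonic stem cells. Npac, now named Glyr1, is a chromatin protein that binds nucleosomes of transcribed gene bodies.

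The target of the RNA interference was lower on both depleted arrays. Glyr1 read 10.23 and 10.20 in Npac RNAi, against 11.30 and 11.32 in control RNAi, and 46.9% of the control level was left (log2 difference -1.09, SE 0.0458, limma adjusted p = 0.00101, n = 2 arrays each). Embryonic stem cell markers were present in both groups, with 6 of 8 lower and 0 higher in Npac RNAi (at an unadjusted limma p under 0.05 the counts were also 6 and 0), and their summed linear signal was 56763 to 57254 in Npac RNAi and 74031 to 74152 in control RNAi. Among them were the pluripotency factor genes Pou5f1 (log2 difference -1.17) and Nanog (-0.48). Of 8 trophoblast markers, 7 were higher and 0 lower (8 and 0 at an unadjusted p under 0.05), with sums of 42241 to 42733 in Npac RNAi and 9831 to 9970 in control RNAi. Of 8 fibroblast markers, which would mark feeder cells, 0 were higher and 1 lower (0 and 1 at an unadjusted p under 0.05), with sums of 411 to 439 in Npac RNAi and 399 to 440 in control RNAi. The part of these shifts in the elongation genes was not tested, and in bulk RNA fewer cells of a type and less RNA per cell cannot be told apart. The signal at the 3' end over the 5' end of the beta-actin control differed by 0.69 and 0.68 (log2) in Npac RNAi and by 0.64 and 0.68 in control RNAi, and that of the Gapdh control by 0.056 and 0.016 in Npac RNAi and by -0.027 and -0.069 in control RNAi.

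Npac depletion was accompanied by small and mixed differences in the elongation machinery. Of the 53 genes, 14 were called higher and 9 lower at a limma adjusted p under 0.05, which is 43.4% called, where 40.8% of all 18193 genes were called. The 14 higher calls made up 26.4% of the genes against a background of 22.1%, and the 9 lower calls 17% against a background of 18.7%. These shares lie near the background. Of the 53 genes, 49 had a mean signal no lower than the median gene, and 46.9% of those were called, against 52.9% of all genes of such signal. The median log2 difference was 0.0031 for the 53 genes, which lies above that of all genes, -0.040, but below the 0.062 of genes with at least the median level. The groups did not overlap for 48 of the 53 genes, where 74.2% of all genes showed no overlap. Of the 49 with at least the median level it was 44, against 7794 of 9097 such genes.

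The largest differences among the 53 genes were rises of Aff3 (1.85-fold), Ctr9 (1.69-fold) and Ell (1.59-fold), the 3 genes that were called and differed at least 1.5-fold. They were 5.66% of the elongation genes, against 10.1% of all genes called at that fold. On the lower side the differences ended at Nelfcd, with 72.7% of the control level, and Nelfa, with 74.2%. The calls that held with all 4 arrays and with each array left out in turn were 6: Ctr9, Ell, Aff3 and Mllt1, higher, and Nelfa and Nelfcd, lower. These 6 were 11.3% of the elongation genes, while 14.4% of all genes met the same rule. Scaling the arrays on the poly-A spike-ins (foreign transcripts that serve as labelling controls), which lowers every difference by 0.54, left 2 of the 53 genes called higher, Aff3 (0.34) and Ctr9 (0.22), and 45 called lower. Ell was then 0.13 without a call, and the other 11 called elongation genes that rose turned negative under this scaling. Of all 18193 genes, 906 were called higher and 14895 lower on that scale.

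**Figure D1:**
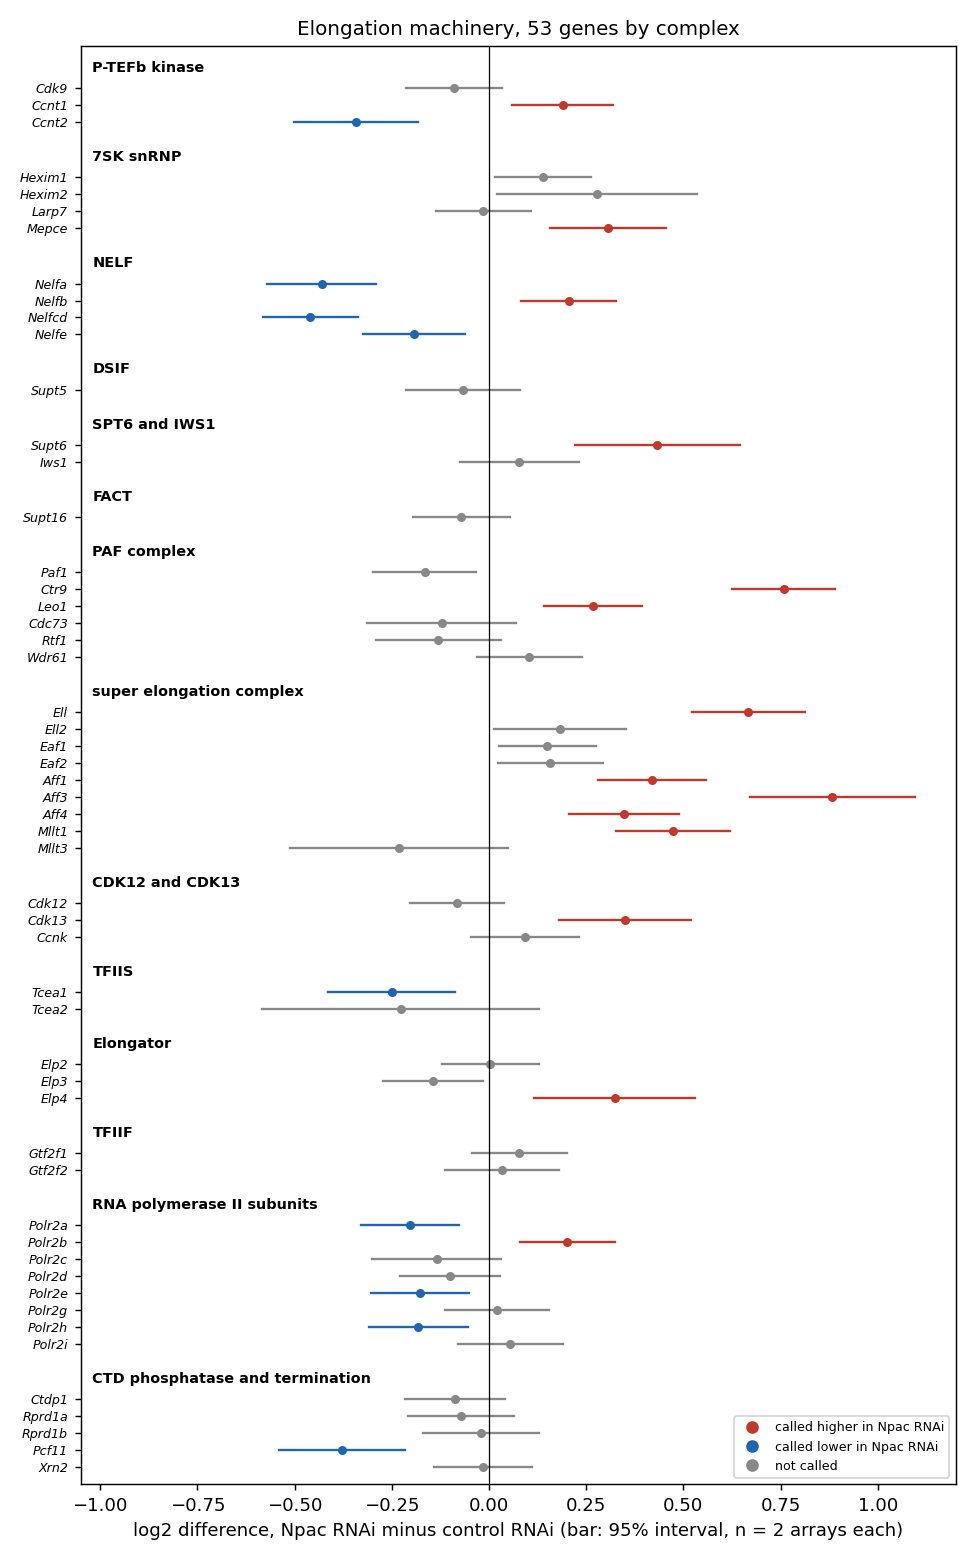
Log2 difference of each of the 53 elongation genes (x axis, Npac RNAi minus control RNAi, n = 2 arrays each), grouped by complex down the page; points are the differences, bars limma's 95% intervals and colours the call at an adjusted p under 0.05. The calls run from -0.46 for Nelfcd to 0.88 for Aff3, with higher and lower genes inside NELF, P-TEFb and the polymerase itself.

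The kinase P-TEFb consists of Cdk9 and a cyclin T. Ccnt1 and Ccnt2 encode alternative cyclin partners, and they were called in opposite directions. Ccnt2 read 10.02 and 10.11 in Npac RNAi, against 10.44 and 10.37 in control RNAi, and fell to 78.9% of control (log2 difference -0.34, SE 0.0591, limma adjusted p = 0.0156). Both depleted arrays lay below both control arrays. Ccnt1 read 10.30 and 10.32 in Npac RNAi, against 10.14 and 10.10 in control RNAi (0.19, SE 0.0481, limma adjusted p = 0.0402), but was -0.35 with spike-in scaling. For the kinase itself, Cdk9, the values were 11.84 and 11.86 in Npac RNAi and 11.95 and 11.93 in control RNAi, without a call (-0.09, 95% interval -0.21 to 0.034). Cdk9 was called lower in 3 of 16 other settings, among them centring (-0.23) and spike-in scaling (-0.63). The call on Ccnt1 was lost whichever array was left out (highest adjusted p 0.164), and that on Ccnt2 without Npac RNAi array 1 or either control array (highest 0.0734). Ccnt1 also had no call after quantile normalization (0.11), after centring (0.049) or as the mean of its 2 probe sets (0.078), the second of which was at -0.034. Ccnt2 was measured by 5 probe sets, 4 of which were called lower (-0.87 to -0.34) and the fifth was not called (0.07).

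The 7SK particle keeps P-TEFb inactive. Of its 4 genes, 1 was called higher and 0 lower (3 and 0 at an unadjusted limma p under 0.05). Of all 18193 genes, 22.1% were called higher and 18.7% lower (4709 and 4778 genes at an unadjusted p under 0.05). Mepce, the enzyme that caps the 7SK RNA, read 9.91 and 9.98 in Npac RNAi, against 9.60 and 9.67 in control RNAi (0.31, SE 0.0552, limma adjusted p = 0.0172). This call was lost whichever array was left out (highest adjusted p 0.0859), after quantile normalization and after centring (0.17), and the mean of its 3 probe sets was 0.05. The inhibitors Hexim1 and Hexim2, which bind and block the kinase on 7SK, lay above control on both depleted arrays without passing the test. Groups without overlap, in either direction, were seen for 74.2% of all genes. Hexim1 read 11.09 and 11.11 in Npac RNAi and 10.97 and 10.96 in control RNAi (0.14, limma adjusted p = 0.0736), and Hexim2 7.57 and 7.48 in Npac RNAi and 7.36 and 7.13 in control RNAi (0.28, limma adjusted p = 0.0809). When all probe sets of a gene were averaged, Hexim1 (0.28) and Hexim2 (0.29) were both called higher. Neither was called after centring (-0.0015 and 0.14) or after quantile normalization (0.063 and 0.16). With spike-in scaling these 3 genes were below 0 (-0.23, -0.40 and -0.26 for Mepce, Hexim1 and Hexim2). Larp7, which holds the 7SK RNA by its end, did not pass the test (-0.015, 95% interval -0.14 to 0.11).

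All 4 subunits of NELF, the negative elongation factor that holds the paused polymerase, were called, 3 lower and 1 higher, where 40.8% of all genes and 52.9% of genes at or above the median level were called. Nelfcd read 9.69 and 9.70 in Npac RNAi, against 10.15 and 10.16 in control RNAi (log2 difference -0.46, SE 0.0452, limma adjusted p = 0.00447), and Nelfa read 12.65 and 12.61 in Npac RNAi, against 13.03 and 13.09 in control RNAi (-0.43, SE 0.0518, limma adjusted p = 0.00682). For these genes the gap between the groups was several times the gap between replicate arrays. Nelfe, the subunit with an RNA-binding domain, fell as well (-0.19, limma adjusted p = 0.0392), with 9.82 and 9.80 in Npac RNAi and 9.98 and 10.03 in control RNAi. Nelfb was the subunit that rose, with 10.22 and 10.23 in Npac RNAi and 10.02 and 10.02 in control RNAi (0.20, limma adjusted p = 0.0281), and it was 0.12 without a call after quantile normalization, 0.065 without a call after centring and -0.33 with spike-in scaling. Leaving out any array ended the calls on Nelfe and Nelfb (highest adjusted p 0.160 and 0.125), while those on Nelfcd and Nelfa were kept (highest 0.0386 and 0.0476). Without moderation of the variances the adjusted p of Nelfa was 0.0517, its highest over 16 settings. Each NELF gene was measured by 1 probe set.

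**Figure D2:**
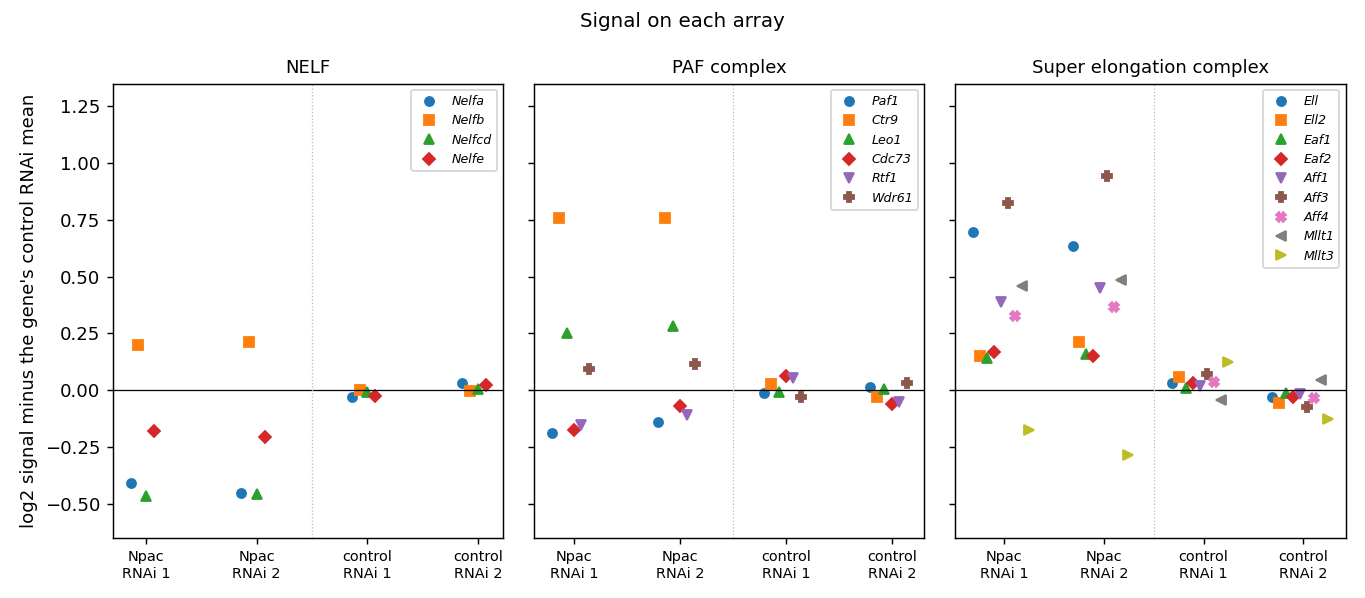
Log2 signal of NELF, PAF complex and super elongation complex genes on each array, minus the gene's own control RNAi mean (y axis); each symbol is 1 gene on 1 array, with Npac RNAi arrays left of control RNAi arrays. Nelfcd and Nelfa lie lowest and Aff3, Ctr9 and Ell highest on both Npac RNAi arrays, and Nelfb lies above 0 while the other NELF genes lie below it.

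The super elongation complex joins P-TEFb to the ELL elongation factors on AFF scaffold proteins. Its P-TEFb genes are counted apart above, with Ccnt2 called lower (-0.34) and Ccnt1 higher (0.19). Calls on the other genes listed for it went in 1 direction. Of these 9 measured genes 5 were called higher and 0 lower (8 and 0 at an unadjusted limma p under 0.05), with a median log2 difference of 0.35. With spike-in scaling 3 of the 5, Aff1 (-0.12), Aff4 (-0.19) and Mllt1 (-0.067), were below 0. The 5 genes are 55.6% of the 9, where 22.1% of all genes and 33.6% of genes at or above the median level were called higher. At an unadjusted limma p under 0.05, 4709 of all 18193 genes and 3556 of 9097 at or above the median level were higher. Aff3, a scaffold of a related complex, read 8.20 and 8.32 in Npac RNAi, against 7.45 and 7.30 in control RNAi (0.88, SE 0.0785, limma adjusted p = 0.00363). Ell, which raises the rate of elongation, read 9.52 and 9.45 in Npac RNAi, against 8.85 and 8.79 in control RNAi (0.67, SE 0.0537, limma adjusted p = 0.00306). Neither gene's groups overlapped. Mllt1, a reader of acylated histones, read 8.53 and 8.55 in Npac RNAi, against 8.02 and 8.11 in control RNAi (0.47, SE 0.0544, limma adjusted p = 0.00617).

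The scaffold genes Aff1 and Aff4 were also called higher. Aff1 read 10.52 and 10.58 in Npac RNAi, against 10.14 and 10.11 in control RNAi (0.42, limma adjusted p = 0.00696), and Aff4 read 11.43 and 11.47 in Npac RNAi, against 11.14 and 11.07 in control RNAi (0.35, limma adjusted p = 0.0114). Aff1 lost its call without control RNAi array 2 (adjusted p = 0.0507), and Aff4 without that array or Npac RNAi array 2 (up to 0.0642). The ELL relative Ell2 (0.18, limma adjusted p = 0.0811) and the ELL partners Eaf1 (0.15, 0.0630) and Eaf2 (0.16, 0.0666) lay above control on both depleted arrays without a call, and the means over probe sets of Ell2 (-0.037) and Eaf1 (-0.042) lay below 0. Groups without overlap were seen for 74.2% of all genes. After centring Ell2 (0.043), Eaf1 (0.0096) and Eaf2 (0.018) had no call. Mllt3, the paralogue of Mllt1, read 7.24 and 7.13 in Npac RNAi and 7.55 and 7.29 in control RNAi and did not pass the test (-0.23, 95% interval -0.51 to 0.050). The probe sets of a gene did not always move together. The second probe set of Aff3 was not called (-0.24), nor was that of Ell (0.023), and the mean over probe sets was 0.32 for Aff3, 0.35 for Ell and 0.25 for Mllt1, each still called. The mean for Aff4 was 0.10, without a call. Without moderation of the variances Aff3 (adjusted p = 0.0598), Aff1, Aff4 and Mllt1 lost their calls, and Ell kept its call.

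Promoter sequences are given for 3 of the genes that rose, Ell, Aff3 and Mllt1, and for Nelfa and Ccnt2, which fell, to set the start regions of oppositely called genes side by side. They come from RefSeq on build GRCm38.p6, run 5′ to 3′ on the gene's strand and cover 250 bases before to 50 bases after the annotated start. Capitals mark matches on either strand to 5 short motifs, and matches may overlap. The TATA box was searched as TATAAA. The CCAAT box was searched by the letters of its name. The GC box, bound by Sp factors, was searched as GGGCGG. For sites of ETS factors the core was written CCGGAA. For sites of the factor YY1 the core was written AAGATGG.
Ell, chr8:70539425-70539724, plus strand: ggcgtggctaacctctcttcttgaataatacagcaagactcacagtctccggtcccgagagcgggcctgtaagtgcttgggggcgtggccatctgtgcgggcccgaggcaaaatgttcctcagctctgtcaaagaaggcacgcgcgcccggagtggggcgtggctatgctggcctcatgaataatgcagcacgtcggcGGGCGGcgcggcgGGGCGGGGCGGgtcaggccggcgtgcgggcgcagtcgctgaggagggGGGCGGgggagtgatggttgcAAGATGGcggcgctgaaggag
Aff3, chr1:38627195-38627494, minus strand: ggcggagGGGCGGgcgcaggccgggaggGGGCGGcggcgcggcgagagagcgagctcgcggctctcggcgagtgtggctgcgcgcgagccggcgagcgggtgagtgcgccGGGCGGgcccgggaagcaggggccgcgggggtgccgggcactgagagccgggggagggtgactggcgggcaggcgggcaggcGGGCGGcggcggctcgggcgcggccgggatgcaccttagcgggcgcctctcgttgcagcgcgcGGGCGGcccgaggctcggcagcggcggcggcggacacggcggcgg
Mllt1, chr17:56935339-56935638, minus strand: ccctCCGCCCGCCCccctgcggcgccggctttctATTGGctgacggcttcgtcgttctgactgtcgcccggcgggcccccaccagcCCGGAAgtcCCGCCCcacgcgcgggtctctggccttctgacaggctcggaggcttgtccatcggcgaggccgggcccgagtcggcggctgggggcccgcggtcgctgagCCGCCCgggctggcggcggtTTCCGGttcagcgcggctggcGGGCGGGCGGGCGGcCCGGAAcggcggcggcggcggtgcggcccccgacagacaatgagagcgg
Nelfa, chr5:33936222-33936521, minus strand: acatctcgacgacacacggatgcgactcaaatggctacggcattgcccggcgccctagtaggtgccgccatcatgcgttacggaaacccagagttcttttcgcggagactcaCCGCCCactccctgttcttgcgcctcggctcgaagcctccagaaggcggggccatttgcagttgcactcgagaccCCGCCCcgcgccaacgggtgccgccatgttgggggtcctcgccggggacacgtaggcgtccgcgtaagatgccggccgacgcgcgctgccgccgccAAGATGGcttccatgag
Ccnt2, chr1:127773914-127774213, plus strand: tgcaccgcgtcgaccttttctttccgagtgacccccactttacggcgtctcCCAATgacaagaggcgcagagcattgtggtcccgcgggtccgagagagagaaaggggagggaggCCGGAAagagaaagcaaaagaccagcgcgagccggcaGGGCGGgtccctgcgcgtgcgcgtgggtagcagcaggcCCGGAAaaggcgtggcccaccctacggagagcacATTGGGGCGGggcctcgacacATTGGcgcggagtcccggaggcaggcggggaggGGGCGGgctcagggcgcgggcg

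All 5 windows held GC boxes, with 4 in Ell, 5 in Aff3, 7 in Mllt1, 2 in Nelfa and 3 in Ccnt2, and 0 held the TATA box. The CCAAT box was found in Mllt1 (1 match) and Ccnt2 (3), the ETS core in Mllt1 (3) and Ccnt2 (2), and the YY1 core in Ell (1) and Nelfa (1). No order of the genes was tested on these 5 windows, which were picked for display. Ctr9 and Nelfcd had no window to show, and the call on Ccnt2 was not kept with each array left out. A RefSeq window was given for 38 of the 53 genes, in 43 windows, and the GC box was present in 72.1% of these, against 35.7% of all 32851 windows of the same length. The share was 34.9% for the ETS core, against 14.9% of all windows, and 41.9% for the CCAAT box, against 37.4%. It was 11.6% for the TATA box, against 13.6% of all windows, and 9.3% for the YY1 core, against 6.34%. The median share of G and C was 63% in the elongation windows and 52.7% in all windows. All windows include genes of any signal, and windows of genes at or above the median level were not compared. A match describes the letters and is not a binding site.

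Among the genes of the PAF complex, which travels with the polymerase and is needed for ubiquitination of histone H2B, Ctr9 and Leo1 were called higher and the other 4 measured were not called. The 2 higher calls are 33.3% of 6, where 33.6% of genes at or above the median level were called higher. Ctr9, the scaffold subunit, read 11.75 and 11.75 in Npac RNAi, against 11.02 and 10.97 in control RNAi (log2 difference 0.76, SE 0.0488, limma adjusted p = 0.00195). It kept its call under all 16 alternative settings, though its place above 0 under centring and spike-in scaling follows from its deposited difference. All 5 of its probe sets were called higher, by 0.45 to 0.76, so the rise did not rest on the choice of probe set. Leo1 read 10.80 and 10.83 in Npac RNAi, against 10.54 and 10.55 in control RNAi (0.27, limma adjusted p = 0.0160), lost its call whichever array was left out (highest adjusted p 0.0860) and after centring (0.13), and was -0.27 with spike-in scaling.

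Subunits of the same complex that did not pass the test lay on either side of 0. Paf1 was nearest to a call (-0.16, limma adjusted p = 0.0585), with 9.61 and 9.67 in Npac RNAi and 9.79 and 9.82 in control RNAi. Paf1 was called lower in 5 and Rtf1 in 4 of 16 other settings. Among these were centring (-0.30 and -0.27) and spike-in scaling (-0.70 and -0.67). Rtf1, the subunit that stimulates histone H2B ubiquitination, was at -0.13 (95% interval -0.29 to 0.030), Wdr61, which also belongs to the Ski complex of RNA decay, at 0.10 (-0.032 to 0.24), and Cdc73, a tumour suppressor gene, at -0.12 (-0.31 to 0.070). Of the 7 probe sets of Cdc73, 3 were called lower (-0.62, -0.54 and -0.36) and 4 were not called, and their mean was called (-0.23). Of the 4 probe sets of Wdr61, 1 was called higher (0.47), and their mean was called (0.21), while centring gave -0.037 without a call. The difference between Ctr9 and these subunits was not tested as such. The 95% interval of Ctr9, 0.63 to 0.89, lay above those of the 4 genes without a call.

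Histone chaperones and DSIF gave 1 call among 4 measured genes, where 40.8% of all genes and 52.9% of genes at or above the median level were called. Supt6, the gene of the chaperone SPT6, read 9.25 and 9.27 in Npac RNAi, against 8.92 and 8.74 in control RNAi (0.43, SE 0.0783, limma adjusted p = 0.0175), lost its call without either Npac RNAi array or control RNAi array 2 (adjusted p up to 0.0788), was 0.22 without a call as the mean of its 2 probe sets and was -0.11 with spike-in scaling. Its partner Iws1 did not pass the test (0.079, 95% interval -0.075 to 0.23). Supt5, the large DSIF subunit, read 11.96 and 11.97 in Npac RNAi and 11.99 and 12.08 in control RNAi (-0.066, -0.21 to 0.080), and the FACT subunit gene Supt16 read 11.80 and 11.77 in Npac RNAi and 11.86 and 11.86 in control RNAi (-0.071, -0.20 to 0.054). Their groups did not overlap, but the intervals of Supt5 and Supt16 include 0. The second probe set of Supt16 was called lower (-0.37), as was the mean of both (-0.22). After centring Supt16 and Supt5 were both called lower (-0.21 each).

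The kinases CDK12 and CDK13, which phosphorylate the polymerase tail within gene bodies, could not be read without regard to the probe set. Cdk13 was called higher by its brightest probe set, with 8.75 and 8.80 in Npac RNAi and 8.48 and 8.37 in control RNAi (0.35, limma adjusted p = 0.0168). That call was lost without either Npac RNAi array or control RNAi array 2 (adjusted p up to 0.0828), as well as after quantile normalization (0.18) and as the mean of 4 probe sets (0.18), and the value was -0.19 with spike-in scaling. When each probe set was tested on its own, 2 of the 4 for Cdk13 were called higher (0.71 and 0.35), 1 lower (-0.30) and 1 not called. Of the 7 for Cdk12, 1 was called higher (0.55), 1 lower (-0.42) and 5 not called, the brightest among these (-0.082, limma adjusted p = 0.209 in the fit over genes). Cdk12 and Cdk13 were the 2 elongation genes with probe sets called in both directions. Their cyclin, Ccnk, had 1 probe set and no call (0.092, 95% interval -0.047 to 0.23).

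**Figure D3:**
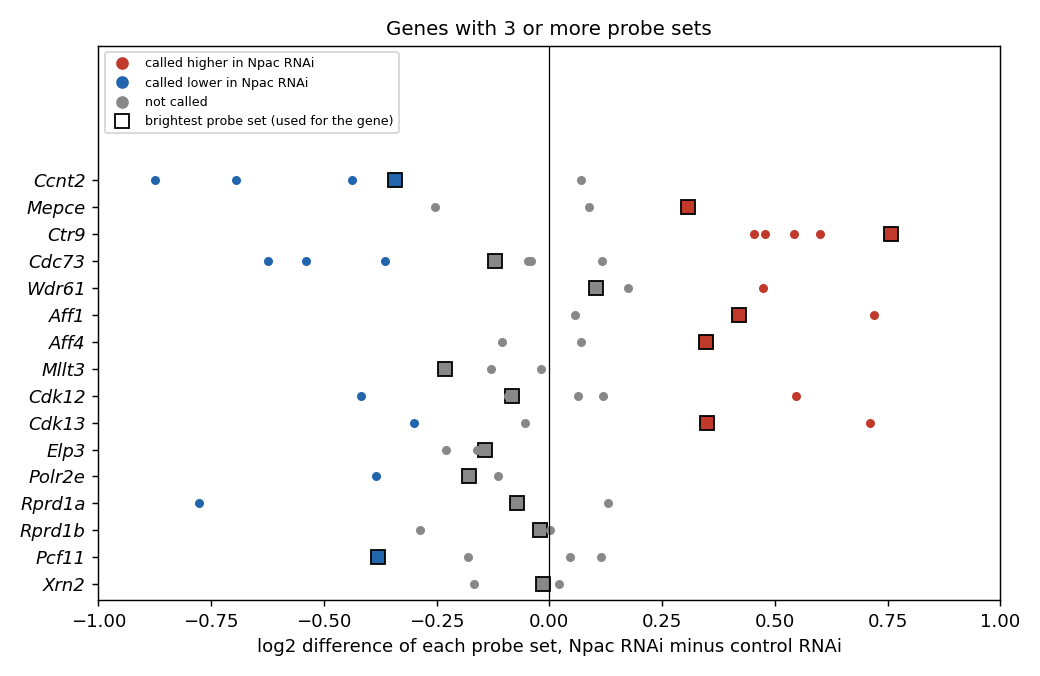
Log2 difference (x axis, Npac RNAi minus control RNAi) of every probe set of the 16 elongation genes with 3 or more; squares are the brightest probe sets, which stand for the genes elsewhere, and colours give the call adjusted over all probe sets. All 5 Ctr9 probe sets lie above 0, while those of Cdk12 and Cdk13 carry calls on both sides.

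Over the 119 probe sets of the 53 genes, 22 were called higher and 15 lower with adjustment over all probe sets, of which 28.2% were called. Some probe sets other than the brightest carried large differences, such as 1 of Rprd1a (-0.78), 1 of Ccnt2 (-0.87) and 1 of Aff1 (0.72). Which transcript forms or transcript parts these probe sets read was not analysed here. For 18 genes, among them all of NELF, there was 1 probe set and no such check.

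The subunits of RNA polymerase II showed 4 small calls among 8 genes, 3 lower and 1 higher. This is 50% called, near the 40.8% of all genes and the 52.9% of genes at or above the median level. Polr2a, the largest subunit with the repeated tail, read 11.43 and 11.42 in Npac RNAi, against 11.61 and 11.65 in control RNAi (log2 difference -0.20, SE 0.0464, limma adjusted p = 0.0309). Polr2b, the second largest subunit, read 13.18 and 13.17 in Npac RNAi, against 12.97 and 12.98 in control RNAi (0.20, SE 0.0451, limma adjusted p = 0.0293). The 2 genes that form the catalytic core thus differed in opposite directions on the deposited scale, though Polr2b was 0.062 without a call after centring, and with spike-in scaling Polr2b was -0.34 and Polr2a -0.74. Polr2e and Polr2h, subunits shared with the other nuclear polymerases, were lower (-0.18 each, limma adjusted p = 0.0444 and 0.0423). Polr2e read 11.82 and 11.80 in Npac RNAi and 11.97 and 12.01 in control RNAi, and Polr2h read 11.52 and 11.49 in Npac RNAi and 11.70 and 11.68 in control RNAi. Calls on these 4 genes were lost whichever array was left out (highest adjusted p 0.130, 0.118, 0.176 and 0.173 for Polr2a, Polr2b, Polr2e and Polr2h). Polr2e also had no call as the mean of its 3 probe sets (-0.22). The uncalled subunits ranged from Polr2c (-0.13) and Polr2d (-0.10) to Polr2g (0.020) and Polr2i (0.055), and for Polr2g the groups overlapped.

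Factors that help a stalled polymerase or end transcription gave 2 lower calls, and Elongator 1 higher call. Of 2 TFIIS genes 1 was called lower, of 5 tail phosphatase and termination genes 1 lower, and of 3 Elongator genes 1 higher. Of all genes 18.7% were called lower and 22.1% higher, and of genes at or above the median level 19.3% and 33.6%. Groups this small cannot be set apart from those shares. Tcea1, the TFIIS gene whose product rescues backtracked polymerase, read 10.43 and 10.49 in Npac RNAi, against 10.76 and 10.66 in control RNAi (-0.25, limma adjusted p = 0.0353), lost the call whichever array was left out (highest adjusted p 0.128) and was -0.11 without a call as the mean of its 2 probe sets. Pcf11, a cleavage factor that binds the polymerase tail, read 9.18 and 9.11 in Npac RNAi, against 9.48 and 9.57 in control RNAi (-0.38, limma adjusted p = 0.0125), but its other 3 probe sets were not called (-0.18 to 0.11), the mean over all 4 was -0.10 without a call, and the call was lost without Npac RNAi array 2 or control RNAi array 2 (up to 0.0662). In Elongator, known mainly for tRNA modification, Elp4 was higher, with 9.12 and 9.25 in Npac RNAi and 8.93 and 8.79 in control RNAi (0.32, limma adjusted p = 0.0339). Both Elp4 probe sets were called, but the gene's call was lost whichever array was left out (highest adjusted p 0.132), after quantile normalization (0.17) and after centring (0.18), and it was -0.22 with spike-in scaling.

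The remaining genes of these groups did not pass the test. Elp3, the catalytic Elongator subunit, was at -0.14 (limma adjusted p = 0.0759) and Elp2 at 0.0031. Elp3 was called lower in 5 of 16 other settings, among them centring (-0.28) and spike-in scaling (-0.68). The second TFIIS gene Tcea2 was at -0.23 with arrays that spread widely (7.44 and 7.09 in Npac RNAi, 7.45 and 7.53 in control RNAi). The TFIIF genes Gtf2f1 (0.078) and Gtf2f2 (0.034), the tail phosphatase gene Ctdp1 (-0.086), the tail-binding Rprd1a (-0.072) and Rprd1b (-0.020) and the exonuclease gene Xrn2 (-0.015), whose product degrades the downstream transcript at termination, completed the list. Rprd1a was called lower as the mean of its 3 probe sets (-0.24) and after centring (-0.21). Xrn2, Rprd1b, Gtf2f2 and Elp2 had overlapping groups, as did Polr2g.

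Other genes of the transcription cycle, from lists named for the comparison, gave shares of calls similar to those of the elongation genes. Of 113 measured, 30 were higher and 21 lower (45.1% called, against 40.8% of all genes), with a median of 0.014. All 113 lay at or above the median level, and 52.9% of genes of that level were called, 33.6% higher and 19.3% lower. The related genes, with 26.5% higher and 18.6% lower, lay below these shares. The chromatin factors linked to elongation gave 7 higher and 1 lower of 16 (43.8% and 6.25%). Among them the histone H3 methyltransferase genes Nsd2 (0.62, limma adjusted p = 0.00710) and Nsd3 (0.50, 0.00379) were higher and nucleolin, Ncl, was lower (-0.33, 0.00926). Of 31 genes of Mediator, the bridge between activators and the polymerase, 10 were higher and 3 lower (32.3% and 9.68%). Higher calls were led by Med14 (0.65) and Med12 (0.50), lower calls by Med30 (-0.31) and Med16 (-0.24). The balance depends on the scale: with spike-in scaling 0 of the 113 genes were called higher (also 0 at an unadjusted limma p under 0.05) and 102 lower, with Med12 (-0.038) and Nsd3 (-0.044) slightly below 0. Of all 18193 genes, 906 were then called higher and 14895 lower.

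Initiation factors gave 5 higher and 8 lower of 27 (18.5% and 29.6%). For this and the counts below, 33.6% of genes at or above the median level were called higher and 19.3% lower. The TFIIH subunit gene Gtf2h5 (-0.38) and the TFIIA gene Gtf2a2 (-0.37) were lower, although Gtf2h5 was 0.10 as the mean of its probe sets, and Taf6 (0.32) and Taf5 (0.25) were higher. In the Integrator complex, which attenuates transcription near promoters, 2 of 14 were higher, Ints6 (0.59) and Ints14 (0.35), and 2 lower, Ints11, the RNA endonuclease (-0.27), and Ints9 (-0.25). Cleavage and polyadenylation genes gave 3 higher and 4 lower of 16, among them Fip1l1 (0.37), Cpsf2 (0.17), Cpsf4 (-0.55) and Clp1 (-0.37). The other subunits of the complexes above gave 3 higher and 3 lower of 9, with Elp5 (0.27), Eloa (0.24), Elp6 (-0.40) and Tcea3 (-0.36). Taf6, Taf5, Ints14, Fip1l1, Cpsf2, Elp5 and Eloa turned negative with spike-in scaling.

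**Figure D4:**
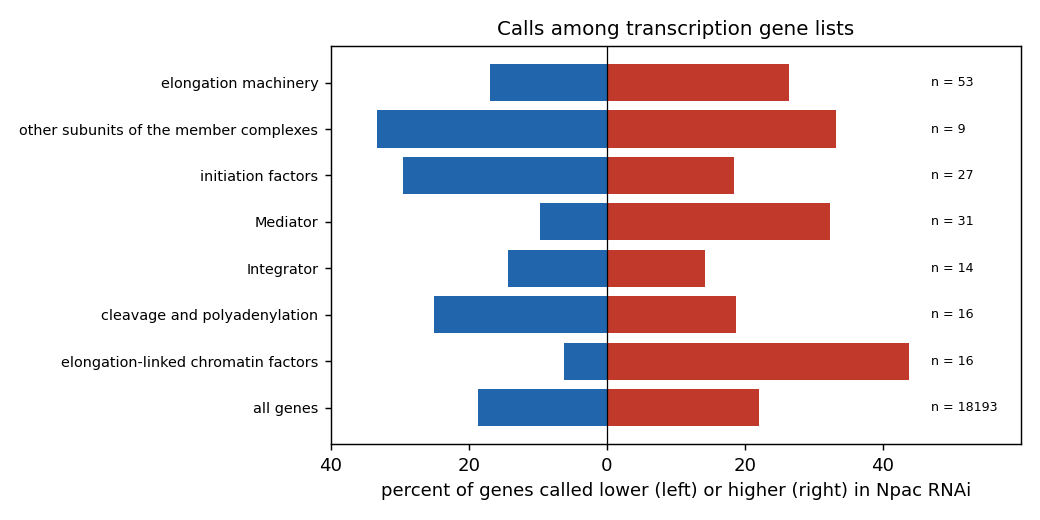
Percent of measured genes called lower (left of 0) or higher (right of 0) in Npac RNAi at a limma adjusted p under 0.05, for the elongation machinery, 6 lists of related genes and all genes, with the number measured at the right. The elongation machinery, with 26.4% higher and 17% lower, lies near all genes, with 22.1% and 18.7%.

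How the called elongation genes are read depends on the scale. After a further quantile normalization 9 were higher and 14 lower, after centring each array on its median 8 and 24, and with spike-in scaling 2 and 45, where as deposited there were 14 and 9. The share of higher calls among the called elongation genes was 39.1%, 25% and 4.26% in these settings and 60.9% as deposited, and among all called genes 44.1%, 28.4% and 5.73%, with 54.1% as deposited. Centring moved every difference by -0.14 and spike-in scaling by -0.54, so which genes lie above 0 in these settings follows from their deposited differences alone and is no sign of stability. Centring used array medians over the genes tested (7.56 and 7.58 in Npac RNAi, 7.43 and 7.42 in control RNAi). Medians over all probe sets but controls were 6.43 and 6.41, against 6.43 and 6.44. Centring took the median difference of all genes from -0.040 to -0.18. Under it 15 elongation genes gained a call and 6 lost one.

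**Figure D5:**
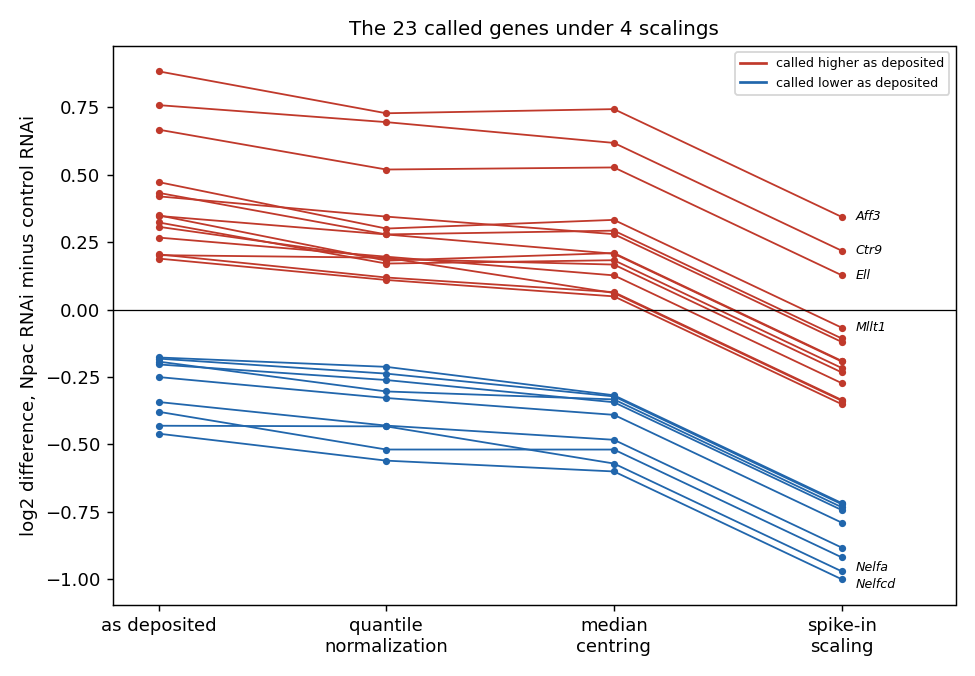
Log2 difference (y axis, Npac RNAi minus control RNAi) of the 23 called elongation genes as deposited and under 3 further scalings (x axis); each line is 1 gene, coloured by its call as deposited. Centring and spike-in scaling lower all lines alike, by 0.14 and 0.54, and the lines of Aff3, Ctr9 and Ell, which differ by more than 0.54 as deposited, end above 0.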

How the data were processed

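Total RNA of 2 Npac RNAi and 2 control RNAi samples, grouped by their titles, was hybridised to Affymetrix arrays, 1 sample each. The deposited values are log2 signals, 1 per probe set and array. RMA, which corrects background, equalises arrays and summarises probes, was used by the authors per the submitters' processing notes. No version is given there, and the log base was inferred from the values (2.78 to 15.05).

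Probe sets with 1 gene symbol (34945 of 45101) were kept, symbols were updated by Entrez identifier through RefSeq genes of GRCm38.p6 (34741 matched), and the brightest probe set stood for each of 18193 genes. Npac RNAi was set against control RNAi by a linear model with moderated variances (limma 3.58.1 under R 4.3.3), with Benjamini-Hochberg adjustment over all genes and calls at an adjusted p under 0.05, after a check on simulated data. Residual degrees of freedom were 2, to which moderation added 2.28. The alternatives changed moderation, scaling, the level filter, the probe set rule, the threshold, the replicate block and the arrays left out. Figures were drawn with matplotlib 3.10.9.

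All called elongation genes were named. Of each related list, up to 2 higher and 2 lower called genes with the smallest adjusted p were named, and always Glyr1, Pou5f1 and Nanog. The elongation genes and the lists were chosen with earlier results of these data known. The number of arrays limits the precision.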

Additional observations from a re-analysis of the deposited data

Results flagged for a closer look

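Signals outside the gene comparison read higher on both Npac RNAi arrays than on both control RNAi arrays in 3 cases. The poly-A spike-in probe sets, bacterial transcripts added to the RNA, averaged 9.15 and 9.24 in Npac RNAi and 8.70 and 8.61 in control RNAi (log2 signal, mean of 24 probe sets), a difference of 0.54 that was seen in 24 of 24 probe sets. The probe set shared by Supt4a and Supt4b, which encode the small DSIF subunit, read 11.58 and 11.57 in Npac RNAi and 11.34 and 11.34 in control RNAi, a difference of 0.24 (limma adjusted p = 0.0369 over all probe sets, n = 2 arrays each). The probe set shared by Ell3 and Serinc4 read 8.94 and 9.00 in Npac RNAi and 8.71 and 8.45 in control RNAi, a difference of 0.39 (limma adjusted p = 0.0523, n = 2 arrays each). Neither of these shared signals can be given to a single gene.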

How the results depend on the processing

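The number of genes called was 7425 as deposited, with 14 higher and 9 lower elongation genes and 30 higher and 21 lower related genes. Without moderation these counts were 2551, 6 and 2, and 11 and 11. At an adjusted p under 0.01 they were 3129, 5 and 2, and 7 and 4, and at 1.5-fold or more 1842, 3 and 0, and 3 and 0, since no called elongation gene or related gene fell by that much. Testing each probe set gave 12705 calls, 22 and 15 for elongation probe sets and 41 and 44 for related ones. The trend option gave 20 and 15, and 43 and 33, and keeping genes at or above the median level 17 and 11, and 36 and 33. Quantile normalization gave 9 and 14, and 15 and 35, centring 8 and 24, and 12 and 49, and spike-in scaling 15801 genes, 2 and 45, and 0 and 102. With 1 array left out, which also leaves fewer degrees of freedom and a lone array assumed to vary like the other group, 3088 to 4731 genes, 4 to 8 higher and 2 to 4 lower elongation genes and 7 to 9 higher and 4 to 6 lower related genes were called.

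The member median log2 difference, over the elongation genes, was 0.0031 as deposited. It was -0.082 under quantile normalization, -0.14 when arrays were centred, -0.54 on the spike-in scale, -0.037 for means of probe sets, -0.018 over single probe sets and -0.0099 to 0.012 with 1 array left out. With the replicate block the number of genes called was 4375, with 8 and 2 elongation genes and 11 and 10 related genes. Same-numbered arrays did not deviate together (r = -0.166 across genes), so the number was not taken as a pairing. A crossed replicate block, chosen after seeing that value, gave 7033 genes and 13 and 6 elongation genes.

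Spike-in scaling turned negative the differences of Ccnt1 (-0.35), Hexim1 (-0.40), Hexim2 (-0.26), Mepce (-0.23), Nelfb (-0.33), Supt6 (-0.11), Iws1 (-0.46), Leo1 (-0.27), Wdr61 (-0.44), Ell2 (-0.36), Eaf1 (-0.39), Eaf2 (-0.38), Aff1 (-0.12), Aff4 (-0.19), Mllt1 (-0.067), Cdk13 (-0.19), Ccnk (-0.45), Elp2 (-0.54), Elp4 (-0.22), Gtf2f1 (-0.46), Gtf2f2 (-0.51), Polr2b (-0.34), Polr2g (-0.52), Polr2i (-0.49), Elp5 (-0.27), Eloa (-0.29), Taf6 (-0.21), Taf5 (-0.29), Med12 (-0.038), Ints14 (-0.19), Fip1l1 (-0.17), Cpsf2 (-0.37) and Nsd3 (-0.044). Gtf2h5 turned to 0.10 with the mean of probe sets. Each spike-in value is the deposited one less 0.54 by construction, and for the other settings the cause was not tested. Over 79 named genes and 16 settings, 884 values kept their direction and side of the threshold or had no call in either, 279 lost a call, 63 gained one and 34 turned.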
